A study of Eragrostis tef with 16 samples.

Results

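The genes described here are 4 putative calcium-transporting ATPases of tef (Eragrostis tef), a cereal grown as a staple in the Horn of Africa: CaTA9 (Et_10A_001147), CaTA9-1 (Et_6A_046490), CaTA10 (Et_4B_039870) and CaTA10-1 (Et_10B_003581). They were picked by identifier, using the names that the study's heatmap legend gives them, and all 4 were present among the 68255 genes of the count table. The identifiers place CaTA9 and CaTA9-1 on subgenome A and CaTA10 and CaTA10-1 on subgenome B of this allotetraploid. The study displayed these genes as differentially expressed in the same libraries, so they are not a neutral sample of the ATPases of tef. Its text gave CaTA9, CaTA9-1 and CaTA10 as more abundant in control than in low calcium shoots, and did not name CaTA10-1 there. Among the transporters it described only CaTA5 as lowered by calcium deficiency in roots.

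Every plant was from the same high-calcium tef accession, raised for about a month in an aerated hydroponic Hoagland-type solution. In this solution ammonium nitrate took the place of calcium nitrate. Calcium supply was the stated difference between treatments, and the calcium salt is not named. Control plants received 1 mM Ca2+ and deficient plants 0.01 mM, and RNA from whole roots and whole shoots was sequenced separately. This gave LCR (low calcium roots, libraries S1 to S4), LCS (low calcium shoots, S5 to S8), ConR (control roots, S9 to S12) and ConS (control shoots, S13 to S16), described by the study as independent biological replicates. Total counts of roots were 6276818 to 10166944 under low calcium (LCR) and 11587068 to 17659238 in controls (ConR). Those of shoots were 9959542 to 11720368 (LCS) and 14640539 to 15590039 (ConS), so that low calcium libraries were the shallower ones in both tissues. No marker genes for root or shoot were named in the files, and the tissue labels were not checked against markers.

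Calcium-transporting ATPases are P-type pumps that use ATP to move Ca2+ out of the cytosol, against its gradient, into the apoplast, the vacuole or the endoplasmic reticulum. In plants they fall into an autoinhibited class (ACA), which calmodulin switches on when cytosolic Ca2+ rises, and an ER-type class (ECA). Together with cation/calcium exchangers they restore resting Ca2+ after a signal and keep internal stores filled. The legend states the family of each gene and not its class or membrane, and the names rest on sequence similarity to foxtail millet, rice and sorghum, so no class is assigned here.

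All 4 genes had their highest mean level in control shoots and all 4 fell in shoots under low calcium. The loss was deepest for CaTA9-1, to 24.4% of the control level, and for CaTA9, to 33.6%. CaTA10-1 fell to 53.7%. CaTA10 fell to 45.8%, a value that rested on 1 control library. In roots only CaTA9-1 passed the test, at 61.6% of control. This call was lost in 7 of 16 fits with 1 library left out, and each of the 7 left out a root library. Of the root libraries, only ConR S11 could be left out without losing the call.

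These statements come from normalized counts, in CPM (counts relative to library totals that were scaled by the TMM method), and from the quasi-likelihood F-test of edgeR over the 56746 genes detected in 4 or more libraries. A gene was called when its Benjamini-Hochberg adjusted p was below 0.05, and all adjusted p-values below are from this test unless another tool is named. A contrast written as LCR vs ConR gives LCR relative to ConR, on the log2 scale. The reads of the 4 genes numbered 958 to 6806 per library, with 78 to 796 for CaTA9-1, 233 to 1438 for CaTA9, 196 to 840 for CaTA10-1 and 382 to 4028 for CaTA10. Reads were not divided by gene length, so levels are compared between groups and not between genes. In whole organs, fewer cells that express a gene and less RNA per cell cannot be told apart.

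CaTA9 varied little among control roots. In ConR the 4 libraries read 64.3, 63.9, 65.6 and 66.6 CPM (65.1 ± 1.26, SD, n = 4), a coefficient of variation of 1.94%. In LCR they read 42.7, 51.9, 60.6 and 51.2 CPM (51.6 ± 7.29, SD, n = 4), a coefficient of variation of 14.1%. Every LCR library was therefore below every ConR library, yet the difference of -0.33 (95% confidence interval -0.76 to 0.09) was not called, with an adjusted p of 0.36.

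In shoots CaTA9 stood at 120.4, 101.5, 132 and 90.9 CPM in ConS (111 ± 18.5, SD, n = 4). Under low calcium it read 46.7 CPM in S5, 27.0 in S6, 49.3 in S7 and 26.6 in S8 (37.4 ± 12.3, SD, n = 4). The highest LCS library was well under the lowest ConS library, and within LCS the libraries formed a higher pair (S5 and S7) and a lower pair (S6 and S8). The fitted change was -1.57 (SE 0.21, adjusted p = 3.62e-05), or 2.97-fold lower, and it stayed between -1.73 and -1.44 with any 1 library left out. Of the 34750 genes whose average log2 CPM was 1 or more, 0.509% had a more negative change in shoots.

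CaTA9-1 had the largest change of the 4. Its ConS libraries read 66.3, 67.7, 55.1 and 50.2 CPM (59.8 ± 8.52, SD, n = 4). Its LCS libraries read 15.1, 15.3, 18.4 and 9.59 CPM (14.6 ± 3.66, SD, n = 4). No LCS library came near the control range, and the change of -2.04 (SE 0.18, adjusted p = 7.81e-07) was 4.10-fold, with 0.17% of the 34750 genes showing a more negative one.

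Roots held less CaTA9-1 than control shoots at either calcium level. ConR read 21.1, 21.7, 18.2 and 18.0 CPM (19.8 ± 1.93, SD, n = 4). LCR read 11.04, 13.14, 13.02 and 11.40 CPM (12.2 ± 1.09, SD, n = 4). The root groups did not overlap, and the change was -0.70 (SE 0.18, adjusted p = 0.0409). This call lay close to the threshold. It was lost when any of LCR S1, S2, S3 or S4 or ConR S9, S10 or S12 was left out (adjusted p 0.0533 to 0.121, change -0.74 to -0.65), with DESeq2's size factors in edgeR (0.0559), and when all libraries were thinned to the smallest total (0.0636). Apart from single libraries left out and other thresholds, the call was kept in 9 of 11 alternatives. DESeq2 (adjusted p = 0.0112) and limma-voom (adjusted p = 0.0378) were among the 9.

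**Figure D1:**
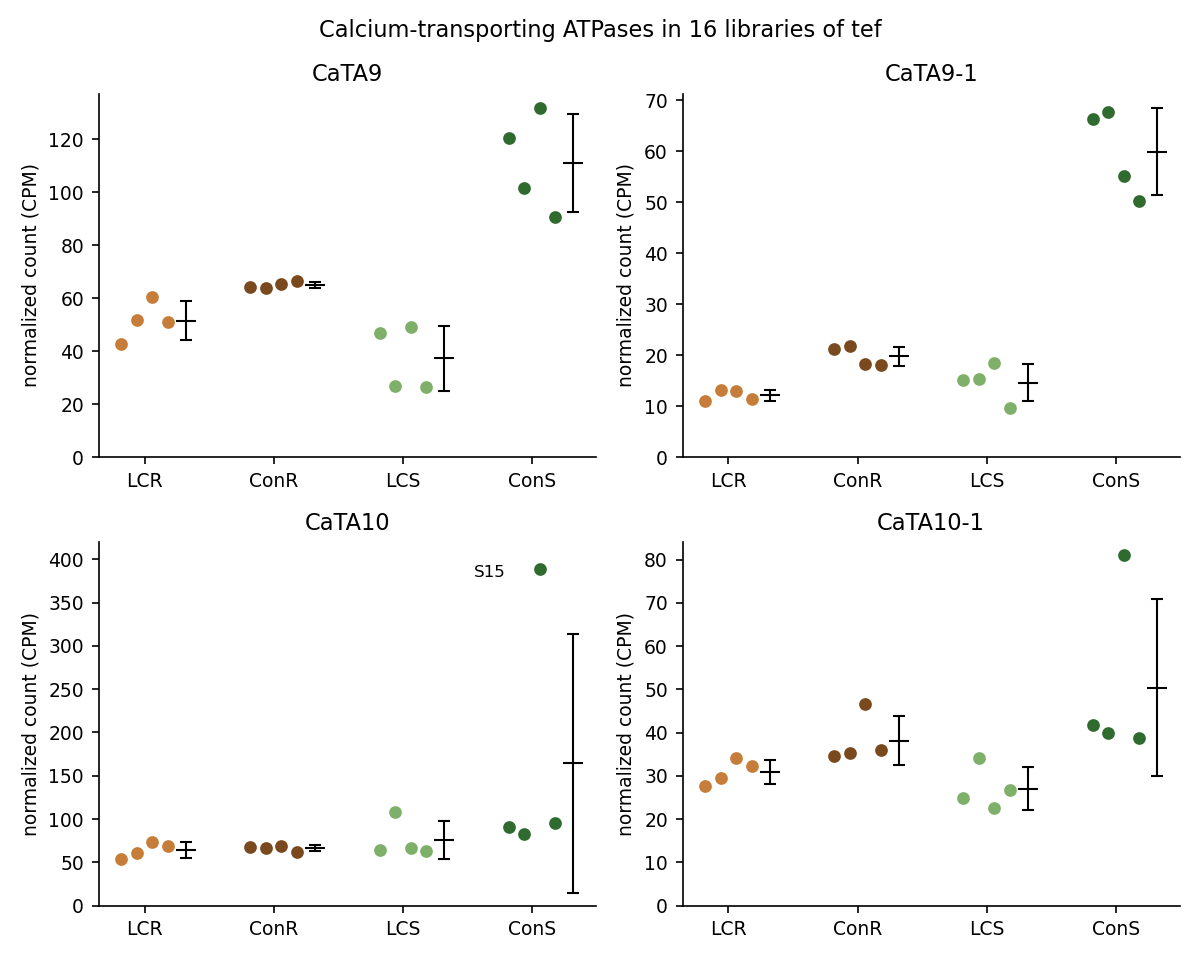
Normalized count in CPM (linear axes from 0, a separate scale for each gene) of CaTA9, CaTA9-1, CaTA10 and CaTA10-1 in each of 16 libraries, grouped as LCR, ConR, LCS and ConS, with points in order of S number and the bar to the right of each group giving the mean and SD of its 4 libraries. For CaTA9 and CaTA9-1 all ConS points lie above all others, while the CaTA10 mean in ConS is drawn upward by S15 at 389 CPM.

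CaTA10 was nearly level across 3 of the 4 groups. Its counts were 67.7, 67.0, 69.2 and 61.5 CPM in ConR (66.4 ± 3.35, SD, n = 4). In LCR they were 54.0, 60.6, 73.7 and 69.1 CPM (64.4 ± 8.79, SD, n = 4). In roots these ranges overlapped and the change was -0.04 (adjusted p = 0.967), with an interval of -0.84 to 0.75. The SE of this root difference was 0.38 with all libraries and 0.18 without ConS S15, since the fit pools the spread over all groups.

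In shoots CaTA10 read 64.0, 108.2, 67.0 and 62.7 CPM in LCS (75.5 ± 21.9, SD, n = 4), with S6 above the rest. In ConS it read 91.0, 83.2, 389 and 95.5 CPM (165 ± 150, SD, n = 4). The S15 value rested on 4028 reads and was 4.07-fold above the next ConS library. The other 3 ConS libraries averaged 89.9 CPM. The fitted change was -1.13 (SE 0.38, adjusted p = 0.0368) and the groups overlapped, since LCS S6 was above 3 ConS libraries. Without ConS S15 the change was -0.31 (SE 0.19, adjusted p = 0.262), and the call was also lost without LCS S5, S7 or S8 (-1.07, -1.07 and -1.05, adjusted p = 0.0659, 0.0678 and 0.1). Leaving out both S6 and S15, an alternative chosen after seeing the data, gave -0.52 (SE 0.17, adjusted p = 0.0455).

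CaTA10-1 showed the same 2 libraries high in shoots, to a lesser degree. It read 24.9, 34.2, 22.5 and 26.6 CPM in LCS (27.1 ± 5.04, SD, n = 4). In ConS it read 41.9, 40.0, 81.1 and 38.7 CPM (50.4 ± 20.5, SD, n = 4). S15 was again the high ConS library, 1.94-fold above the next, and S6 the high LCS library, but here the groups did not overlap. The change was -0.90 (SE 0.22, adjusted p = 0.00616), and without S15 it was -0.63 (adjusted p = 0.0135).

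In roots CaTA10-1 read 34.6, 35.4, 46.6 and 36.1 CPM in ConR (38.2 ± 5.66, SD, n = 4). In LCR it read 27.7, 29.4, 34.1 and 32.3 CPM (30.9 ± 2.84, SD, n = 4). The lowest ConR library, at 34.6 CPM, was just above the highest LCR library, at 34.1 CPM. The change of -0.30 (95% confidence interval -0.76 to 0.15, adjusted p = 0.44) was not called. Without ConR S11, the high library, it was -0.19.

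Libraries S6 and S15 were not unusual for these genes alone. Among the same 34750 genes, 899 (2.59%) were more than 2-fold higher in ConS S15 than in each other ConS library, against 44 for S13, 142 for S14 and 664 for S16. The same count was 479 (1.38%) for LCS S6 and 833 for LCS S8. It was highest of all 16 libraries in ConR S11, the high one for CaTA10-1 in roots, at 1210 genes (3.48%). Of the 4 genes, only CaTA10 in ConS S15, at 4.07-fold over the next library, passed this 2-fold mark. CaTA10-1 was 1.94-fold over the next library in ConS S15 and 1.29-fold in ConR S11, and CaTA10 was 1.62-fold in LCS S6. LCS S7 was more than 2-fold below its group for 1017 genes. CaTA9 and CaTA9-1 did not follow: in S15 CaTA9 was 1.10-fold above the next ConS library, and CaTA9-1 was inside the range of the others. The part of these wider differences in the CaTA10 values was not tested.

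**Figure D2:**
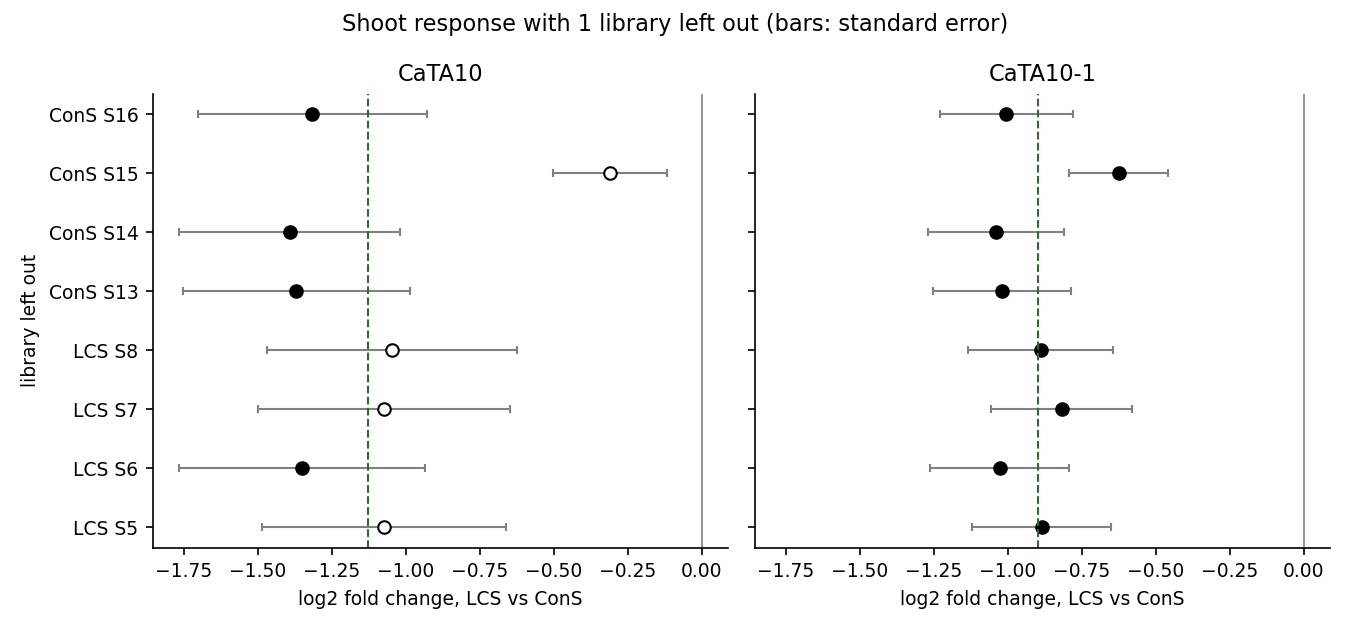
Log2 fold change of LCS over ConS for CaTA10 (left) and CaTA10-1 (right) with each of the 8 shoot libraries left out in turn, as points with standard errors from edgeR, filled where the adjusted p was below 0.05, and with a dashed line at the value from all libraries. For CaTA10 the point without ConS S15 moves to -0.31 and is open, as are the points without LCS S5, S7 and S8, while all points of CaTA10-1 are filled.

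Counting calls, 4 of the 4 genes fell in LCS vs ConS, where 25.8% of all genes tested were called and 9.04% were lower. The CaTA10 call among these was lost without ConS S15 (-0.31, adjusted p = 0.262). In LCR vs ConR 1 of 4 fell, against 3.23% called and 1.33% lower among all genes. The median log2 change of the 4 was -1.35 in shoots and -0.32 in roots, and the medians of all genes tested were 0.11 and 0.03. Both comparisons were tested with the genes known to have been displayed by the study, so these shares describe the 4 genes.

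Whether shoots responded more than roots was tested directly, as the interaction of tissue and calcium, for which 5.91% of all genes were called and 0.71% had a more negative shoot response. CaTA9 and CaTA9-1 were called among the 4. The shoot change minus the root change was -1.24 (SE 0.29, adjusted p = 0.0139) for CaTA9 and -1.34 (SE 0.25, adjusted p = 0.00363) for CaTA9-1. For CaTA10 the difference was -1.08 (95% confidence interval -2.20 to 0.04, adjusted p = 0.279), and for CaTA10-1 it was -0.59 (-1.24 to 0.05, adjusted p = 0.307), so that a response of the same size in both tissues lay just inside either interval. Without S15 these were -0.24 and -0.29. The call for CaTA9 did not hold when both S6 and S15 were left out (-1.03, adjusted p = 0.0596).

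**Figure D3:**
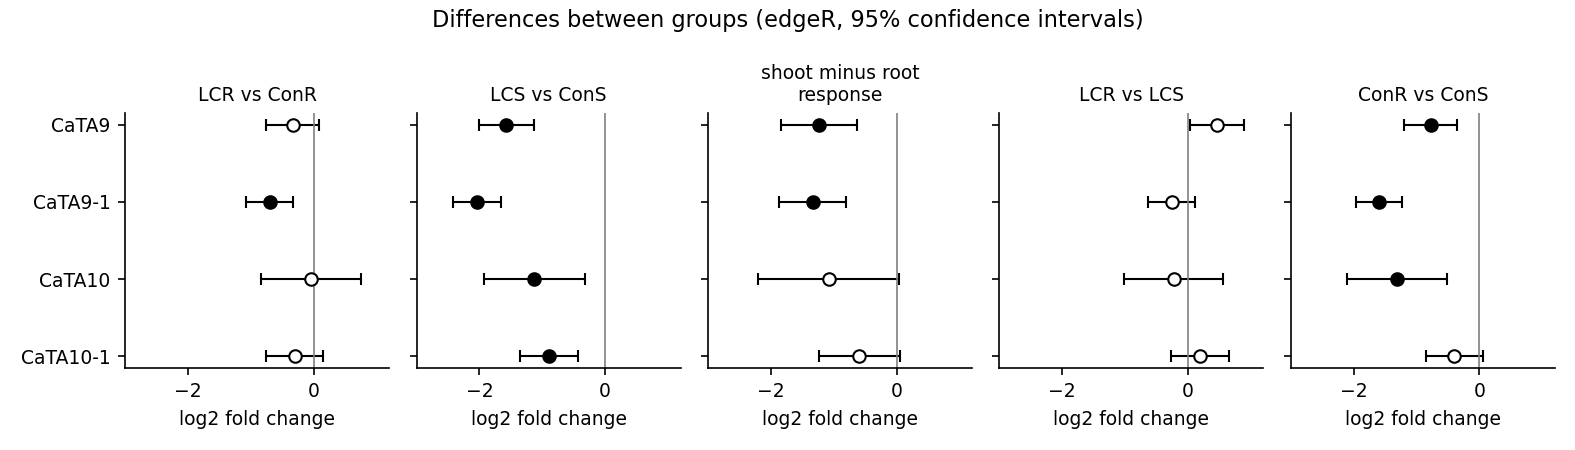
Log2 fold changes with 95% confidence intervals from edgeR for the 4 ATPases in LCR vs ConR, LCS vs ConS, the shoot response minus the root response, LCR vs LCS and ConR vs ConS, with filled points where the adjusted p was below 0.05 and a grey line at no change. All 4 points are filled and negative for LCS vs ConS, and the LCR vs LCS panel has open points on both sides of 0.

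At control calcium CaTA9 and CaTA9-1 were higher in shoots than in roots, and so was CaTA10, by a call that was lost without S15. At low calcium no such difference was detected by edgeR. In ConR vs ConS 3 of 4 were lower in roots, where 52.4% of all genes were called and 23.7% were lower. CaTA9-1 differed most, at -1.60 (SE 0.18, adjusted p = 3.67e-07), which is 3.03-fold more in shoots. CaTA9 differed by -0.77 (SE 0.20, adjusted p = 0.00335) and CaTA10 by -1.31 (SE 0.38, adjusted p = 0.00727), both without overlap. Without S15 the CaTA10 value was -0.44 (adjusted p = 0.0631). CaTA10-1 was not called at -0.40 (95% confidence interval -0.85 to 0.05, adjusted p = 0.13), and without S15 it was -0.08.

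In LCR vs LCS 42.7% of all genes were called by edgeR and 22.7% were lower in roots, and 0 of the 4 were called. At an unadjusted p below 0.05 there was 1, CaTA9, with 0.46 (95% confidence interval 0.04 to 0.89, adjusted p = 0.0749). DESeq2 and limma-voom each called CaTA9 (adjusted p = 0.0396 and 0.0436), as did edgeR with upper-quartile scaling, with filterByExpr and after thinning, all with more CaTA9 in roots than in shoots. It was also called by edgeR without LCS S7 (0.63, adjusted p = 0.0226). The values were -0.26 for CaTA9-1 (interval -0.64 to 0.12), -0.23 for CaTA10 (-1.02 to 0.57) and 0.19 for CaTA10-1 (-0.27 to 0.65), and the libraries of both tissues overlapped for each gene. Without LCS S8, CaTA9-1 was called at -0.42 (adjusted p = 0.0424).

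Ordered by mean level, CaTA9 ran ConS, ConR, LCR, LCS. ConS differed from ConR, but ConR and LCR did not differ by the test, nor did LCR and LCS. CaTA9 was lower in LCS than in ConR, by -0.80 (adjusted p = 0.00338), and was the 1 gene of 4 called in LCS vs ConR, where 45.3% of all genes were called and 21.4% were lower. For CaTA9-1 the order was ConS, ConR, LCS, LCR, and ConR and LCS (-0.44 for LCS vs ConR, adjusted p = 0.0521) and LCS and LCR were not separated. CaTA10 ran ConS, LCS, ConR, LCR, with no separation among the last 3 groups. CaTA10-1 ran ConS, ConR, LCR, LCS, and no adjacent pair was called, while ConS was above both LCR (adjusted p = 0.00986) and LCS. In LCR vs ConS all 4 genes were lower, where 56.1% of all genes were called and 26.1% were lower. Neither LCR vs ConS nor LCS vs ConR was fitted again under the alternatives. The LCR vs ConS calls of CaTA10 and CaTA10-1 were therefore not checked without ConS S15, the high library of both genes.

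Ratios of reads within a library need no scaling between libraries, and their changes show whether genes of 1 name moved unequally. The 8 ratio comparisons (2 pairs, 4 contrasts) were tested by exact two-sided permutation over 4 libraries against 4, for which the smallest possible p is 0.0286, with Benjamini-Hochberg adjustment over the 8. Roots held 3.85 to 4.64 (LCR) and 2.94 to 3.70 (ConR) CaTA9 reads per CaTA9-1 read. Shoots held 1.76 to 3.08 (LCS) and 1.50 to 2.39 (ConS). The log2 ratio was higher in LCR than in ConR by 0.35, higher in ConR than in ConS by 0.83 and higher in LCR than in LCS by 0.74 (each exact p = 0.0286, adjusted 0.0457, no overlap). Relative to CaTA9, CaTA9-1 was therefore lower in roots than in shoots at either calcium level, and lower in low calcium roots than in control roots. For LCS vs ConS the rise of 0.44 did not pass the test (exact p = 0.114, adjusted 0.131), with LCS S6, at 1.76, inside the ConS range.

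Roots held 1.95 to 2.16 (LCR) and 1.49 to 1.96 (ConR) CaTA10 reads per CaTA10-1 read. Shoots held 2.35 to 3.16 (LCS) and 2.08 to 4.79 (ConS), with the top value in S15. Shoots had the higher ratio at low calcium (LCR vs LCS -0.40) and at control calcium (ConR vs ConS -0.63), each with exact p = 0.0286, adjusted 0.0457, and no overlap. Without S15 the second difference was -0.35. Low calcium moved the log2 ratio by 0.25 in roots (exact p = 0.0571, adjusted 0.0762) and by 0.02 in shoots (exact p = 0.971, adjusted 0.971). Without S15 the shoot difference was 0.295.

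**Figure D4:**
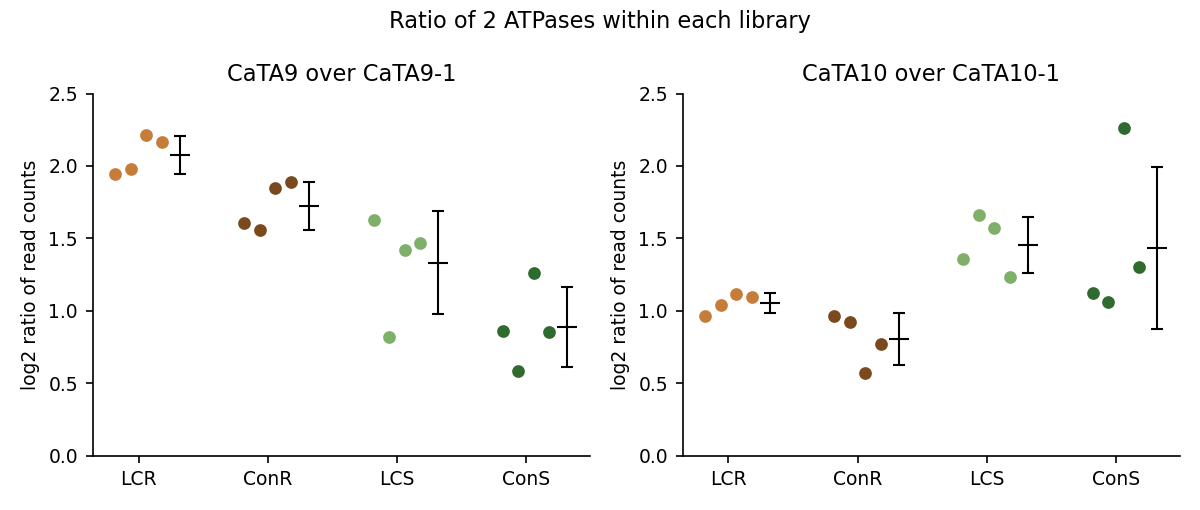
Log2 of the read ratio CaTA9 over CaTA9-1 (left) and CaTA10 over CaTA10-1 (right) in each library, with points in order of S number within LCR, ConR, LCS and ConS and bars for the mean and SD of 4 libraries. On the left the ratio is highest in LCR, and on the right ConS S15 stands above all other libraries.

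The legend names 10 further genes CaTA. The study presented the genes of its legends as differentially expressed in these same libraries, though it described several of the transporters as little affected. How they were chosen is not stated, so the counts below are not taken as independent evidence of a direction. In shoots 5 of these 10 fell under low calcium and 5 did not pass, with a median log2 change of -0.48, against 0.11 over all genes tested. Those that fell were CaTA5-1 at -1.58 (adjusted p = 7.67e-07), CaTA5 at -0.94 (adjusted p = 0.0101), CaTA6 at -0.85 (adjusted p = 0.00159), CaTA3-1 at -0.68 (adjusted p = 0.0296) and CaTA5-2 at -0.46 (adjusted p = 0.0187). In roots 3 of the 10 fell, with a median of -0.43. These were CaTA5 at -1.80 (adjusted p = 0.00158), CaTA5-1 at -0.89 (adjusted p = 0.00289) and CaTA6 at -0.67 (adjusted p = 0.041). CaTA9 and CaTA9-1 were thus joined by CaTA5-1 as the 3 most negative shoot responses among the 14 ATPases, and the order was different in roots, where CaTA5 led. Of the 20 listed calcium transporters of other kinds, such as uniporters and exchangers, 4 rose and 2 fell in shoots and 2 rose and 1 fell in roots, with medians of -0.05 and 0.05. Among all genes tested 16.7% rose and 9.04% fell in shoots, and 1.9% rose and 1.33% fell in roots. Among 35 listed calcium signaling genes, which are calcium-binding proteins and kinases, 6 rose and 10 fell in shoots and 0 rose and 5 fell in roots, to be read against the same shares of all genes.

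**Figure D5:**
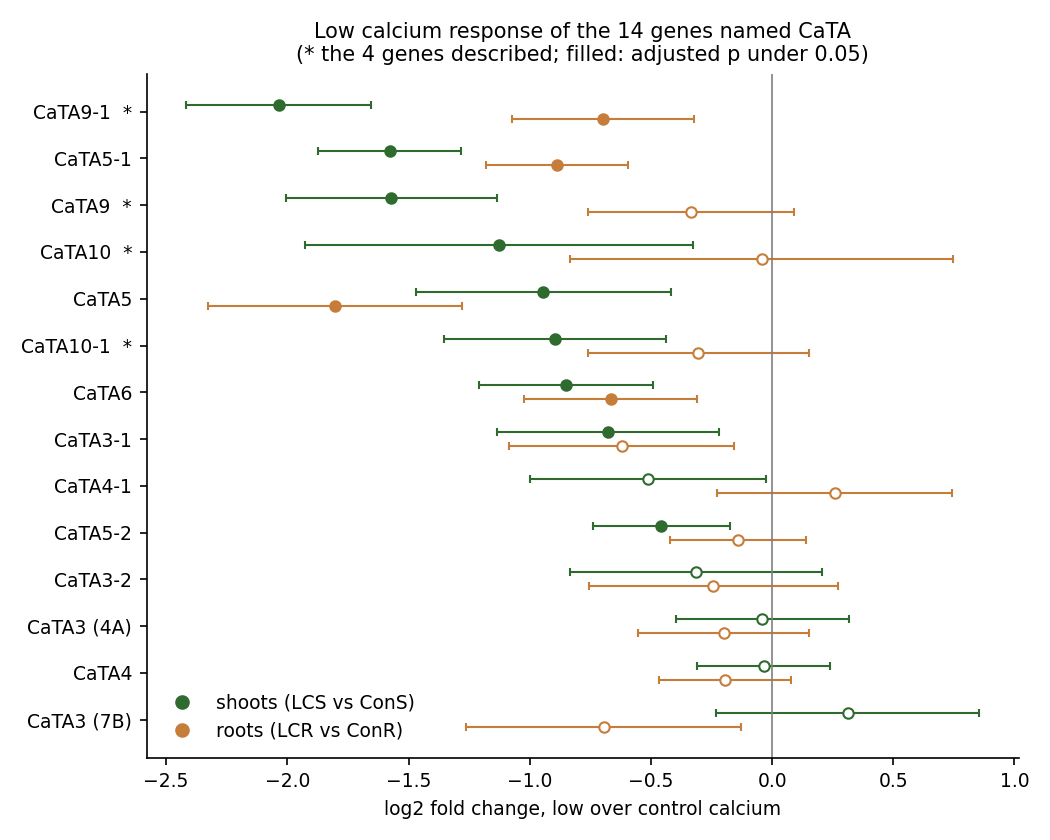
Log2 fold change of low over control calcium for the 14 genes named CaTA, in shoots (green) and roots (orange), with 95% confidence intervals from edgeR, filled where the adjusted p was below 0.05, and ordered by the shoot value. With all libraries, the 4 genes described here (asterisks) are among the 6 most negative shoot values, and in roots the CaTA5 point at -1.80 is the most negative. Without ConS S15 the shoot values of CaTA10 and CaTA10-1 were -0.31 and -0.63, and the ranking was not computed without it.

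Reads of all 14 genes together came to 430.1 to 517 CPM in LCR and 387 to 467 CPM in LCS, below the 710.0 to 770 CPM of ConR and the 656 to 1075 CPM of ConS. The 4 genes held 24.4% to 28.1% of these reads in ConR and 31.5% to 35.1% in LCR, without overlap. In shoots they held 42.0% to 61.2% in ConS and 32.4% to 39.6% in LCS, also without overlap. Their share of ATPase reads was therefore the higher one in low calcium roots and the lower one in low calcium shoots, in every library, though no test was run on it. In LCR vs ConR 3 of the 10 other genes in the denominator were called lower. CaTA5 was among them, with a mean of 249 CPM in ConR and 71.3 CPM in LCR. Of the 4 genes 1 was called lower and 0 higher, and all 4 changes were negative. The part of each gene in the change of share was not tested. Over the reads of all 34 listed calcium transporters, the 4 genes held 15% to 16.8% in ConR and 15.3% to 19.55% in LCR, which overlapped. For CaTA9-1 the share was 5.13% to 10.1% in ConS and 2.48% to 4.42% in LCS, and for CaTA9 it was 12.3% to 16.9% and 5.79% to 11.9%. For CaTA10 it was 12.8% in ConS S13, 12.4% in S14, 14.6% in S16 and 36.2% in S15, and 15.2% to 23.2% in LCS, so that every LCS library was above 3 of the 4 ConS libraries. The share of CaTA10-1 overlapped between the groups, at 5.88% to 7.55% in ConS and 5.42% to 7.33% in LCS. These shares depend on the lengths of the genes as well as on their transcripts, and were compared for 1 gene between groups only.

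Likeness between genes was described by Pearson's r of log2 CPM over the 16 libraries, which share 4 groups and their depths, so no test was attached. CaTA9 and CaTA9-1 had r = 0.86 and CaTA10 and CaTA10-1 r = 0.82, while pairs across these names had 0.51 to 0.71. With group means removed, CaTA10 and CaTA10-1 had r = 0.92, and CaTA9 and CaTA9-1 had 0.58. Across names the values then lay between -0.20 and 0.19. CaTA10 and CaTA10-1 were both highest of their group in ConS S15 and LCS S6, and no r was computed without these libraries. Among the other genes named in the legends, CaTA9-1 was most like CaTA5-1 (r = 0.97) and then CCDSTK1 (0.88), a calcium/calmodulin-dependent kinase. CaTA9 was most like the glutamate receptor GLR3.4-3 (0.86) and the cyclic nucleotide-gated channel CNGC17 (0.86). CaTA10 was most like the uniporter CaUP6 (0.84) and then CaTA10-1, and CaTA10-1 was most like CaTA10 and then CaTA6 (0.79). The oligopeptide transporter OPT4 was the least like CaTA9 (-0.85) and CaTA9-1 (-0.92), and the metal transporter Nramp6 the least like CaTA10 and CaTA10-1 (both -0.73). With group means removed, the closest named genes were GLR3.4-1 (0.93) and CaUP4 (Et_7B_055244, 0.90) for CaTA9, CCDSTK1 (0.71) and CaTA5-1 (0.65) for CaTA9-1, CDPK11 (0.87) after CaTA10-1 for CaTA10, and CaUP6 (0.86) after CaTA10 for CaTA10-1. Over all 34750 genes of sufficient level, the closest identifiers were Et_5A_040621 for CaTA9 (0.96), Et_2A_018056 for CaTA9-1 (0.97), Et_3B_031560 for CaTA10 (0.95) and Et_2A_016917 for CaTA10-1 (0.96), which the files do not pair with names.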

How the data were processed

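RNA-seq libraries of tef roots and shoots (4 each of LCR, LCS, ConR and ConS) were analysed from the raw counts per gene that the authors deposited. Per the study's methods, reads were trimmed with sickle, aligned with hisat2 to the tef draft genome and counted with htseq-count (uniquely mapped reads, exons, union mode, reverse-strand setting). The methods name the library kit without saying whether it marks strand. Reads shared by near-identical copies were not counted, so levels of genes with a close homeolog are uncertain. Total counts were 6276818 to 17659238 per library.

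The members and lists were chosen with earlier results of these data known. Named genes were the 4 ATPases, the other genes named CaTA that passed in a calcium contrast, and for each of the 4 the 2 most and 1 least correlated of the 109 legend genes and the most correlated gene overall. Counts were fitted in R 4.3.3 with edgeR 4.0.16 (TMM, estimateDisp, glmQLFit, glmQLFTest), 1 term per group over all 16 libraries, for 56746 genes. The SE is the log2 change divided by the square root of F. Log2 CPM used a prior count of 2, ratios a pseudocount of 0.5. The S numbers are not shared between groups, so nothing pairs roots with shoots. Alternatives were other scalings, filters (42124, 44014 or 68255 genes), thinning, 8 libraries per contrast, DESeq2 1.42.0, limma-voom (limma 3.58.1), robust fitting, other thresholds and each library left out. The pipeline was tested on simulated data. No genome, annotation or sequence was used.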

Additional observations from a re-analysis of the deposited data

Results flagged for a closer look

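In 4 of the 16 sets of 4 libraries (4 genes, 4 groups), 1 library lay far from the others by Dixon's criterion. Chance alone marks about 1 in 20 for independent sets of normal values. The sets here share libraries, so an excess over that rate was not tested. CaTA10 was 389 CPM in ConS S15 and 108.2 CPM in LCS S6, and CaTA10-1 was 81.1 CPM in ConS S15 and 46.6 CPM in ConR S11. Each of these was the highest of its group.

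The response to low calcium differed between tissues, by the interaction test of edgeR, for CaTA9 (shoot minus root -1.24 on the log2 scale) and for CaTA9-1 (-1.34). In both cases every LCS library was below every ConS library and every LCR library below every ConR library, while the root difference of CaTA9 was not called. The groups of CaTA10-1 were also without overlap in both tissues, though its interaction was not called (adjusted p = 0.307). The share of all genes without overlap was not computed.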

How the results depend on the processing

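Of 576 comparisons of a gene's change with an alternative, 543 kept direction and side of the threshold, 20 lost the call, 8 gained it and 5 changed sign. The total includes fits that left out a library from outside the contrast, which moved the change little. It also includes other thresholds, which left the change as it was, so the 576 are not independent checks. CaTA9-1 in LCR vs ConR was not called with DESeq2's size factors (-0.64), after thinning (-0.63) or at a threshold of 0.01 (-0.70), and with 1 library left out ranged from -0.74 to -0.65. CaTA10 in LCS vs ConS was not called on 8 libraries (-1.16), with limma-voom (-0.82) or at 0.01 (-1.13), and ranged from -1.39 to -0.31 with 1 library left out. CaTA10 in ConR vs ConS ranged from -1.53 to -0.44. CaTA10 in LCR vs ConR turned positive with DESeq2's size factors (0.0107), after thinning (0.0234), with DESeq2 (0.0102) and without LCR S1 (0.0302), the top of a range from -0.12 with 1 library left out. CaTA10 in LCR vs LCS was 0.0033 without S6 and S15. CaTA9 in LCR vs LCS was called with upper-quartile scaling (0.65), filterByExpr (0.50), thinning (0.54), DESeq2 (0.50), limma-voom (0.52) and at a threshold of 0.1 (0.46), and ranged from 0.33 to 0.63 with 1 library left out, the top value, without LCS S7, being called. CaTA9-1 in LCR vs LCS ranged from -0.42 to -0.13. The interaction of CaTA9 was not called at 0.01 (-1.24) or without S6 and S15 (-1.03). The causes were not tested.

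Upper-quartile scaling moved the median of all genes by 0.17 between low calcium tissues and 0.16 between control tissues. The ratios kept direction and side of the threshold with pseudocounts of 1 and 5. For ratios with 1 library left out only the difference was computed, and no p. The mean share of the 14 ATPases' reads moved with other denominators for 31 of 32 values, as the denominators differ in size. No paired analysis was possible because the groups share no S numbers.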
